A study of Mus musculus with 6 samples.

Results

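The genes described here encode the proteins of the mitochondrial ribosome, taken as every gene listed in the deposited table whose symbol begins with Mrpl or Mrps followed by a number. There were 78 such genes among 14824 listed genes, 49 named for the large subunit (Mrpl) and 29 for the small subunit (Mrps). RNA was measured by bulk RNA-seq in the primary somatosensory (S1) cortex of wild-type C57B6 mice at postnatal day 21, all male by the study's methods. The stimulated samples (WS) came from mice whose right whiskers were brushed by hand once a day and whose cortex was collected 90 minutes after the last session. The non-stimulated samples (NS) are labelled as controls with no treatment. Each group held 3 libraries. The labels name no transgene, drug or mutant allele in either group. A legend of the study gives the barrel cortex of the unstimulated side as the control, but which NS and WS libraries share an animal was not named. The replicates of a group are counted as mice in the study's legends. The question asked of the data was whether daily whisker stimulation changed the mRNA of this gene set, and whether the large and the small subunit moved alike.

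Mitochondria carry their own ribosome, which translates the few proteins that the mitochondrial genome encodes, all of them core subunits of the respiratory chain and of ATP synthase. Its ribosomal RNAs are made inside the organelle, whereas its proteins are encoded by nuclear genes scattered over the chromosomes, translated in the cytosol and imported. The small subunit reads the mRNA and the large subunit forms the peptide bond. Part of the proteins have counterparts in bacterial ribosomes and part were added in the mitochondrial lineage. In neurons and other cells with a high energy demand this ribosome is needed to build the machinery of oxidative phosphorylation.

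The files gave for each gene the mean count over the 6 libraries, its SD and a z-score per library, from which the count in each library was recalculated. Total counts were between 15660395 and 17276168 per library. The 78 genes together took between 0.205% and 0.236% of them. All 78 protein-coding genes with such symbols in GENCODE M21 (GRCm38) were listed, on 17 chromosomes, and all 78 passed the filter on low counts, with mean counts between 117 and 1282. Levels are given as CPM, counts scaled to library size, after TMM normalization, which sets the scale so that most genes do not differ. Summed CPM of 9 cortical neuron markers, Slc17a7 and Neurod6 among them, was 10540 to 10840 in NS and 10270 to 11190 in WS. Summed CPM of 8 striatal markers was 274 to 386 in NS and 249 to 598 in WS, and that of 9 tested choroid plexus markers was 495 to 888 in NS and 304 to 1012 in WS. Libraries thus differed more in these sums than in that of the cortical neuron markers.

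None of the 78 genes passed the test between WS and NS. With edgeR's quasi-likelihood test and Benjamini-Hochberg adjustment over 13747 genes, 0 members had an adjusted p under 0.05, against 0.0364% of all genes tested, and their lowest adjusted p was 0.9998. At an unadjusted p under 0.05 there were 0 members, against 1.19% of all genes. DESeq2 likewise gave 0 members at either threshold, against 0.054% and 0.594% of the genes it tested. The study's own threshold was an adjusted p under 0.05 with an absolute log2 fold change above 1. In the edgeR fit it was passed by 4 genes or 0.0291% of all genes, none of them a member. The study reports far more differentially expressed genes from its own comparison, which was not used here. The reason for the difference was not tested.

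The fitted changes were small in both directions. The median log2 fold change (WS over NS) was -0.021 for the large subunit, with 20 genes above 0 and 29 below, and -0.051 for the small subunit, with 10 above and 19 below. Over all genes tested the median was 0.0074, and 47% were below 0. Scaling by total counts alone gave 14 large subunit genes above 0 and 35 below, and removing each library's trend on transcript length and GC content gave 15 and 34. The largest absolute log2 fold change of a member was 0.22, and 62 of 78 lay within 0.1 of 0. Absolute log2 fold changes had a median of 0.055 in the members and 0.069 over all genes tested.

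The precision of the test can be read from the intervals. The 95% interval of a member's log2 fold change reached a median of 0.23 to either side, from 0.18 to 0.39. For 78 of 78 members the interval lay within 1 of 0, the size of change that the study's threshold asks for, and for 77 it lay within 0.5. The lowest bound was -0.58 and the highest 0.42.

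**Figure D1:**
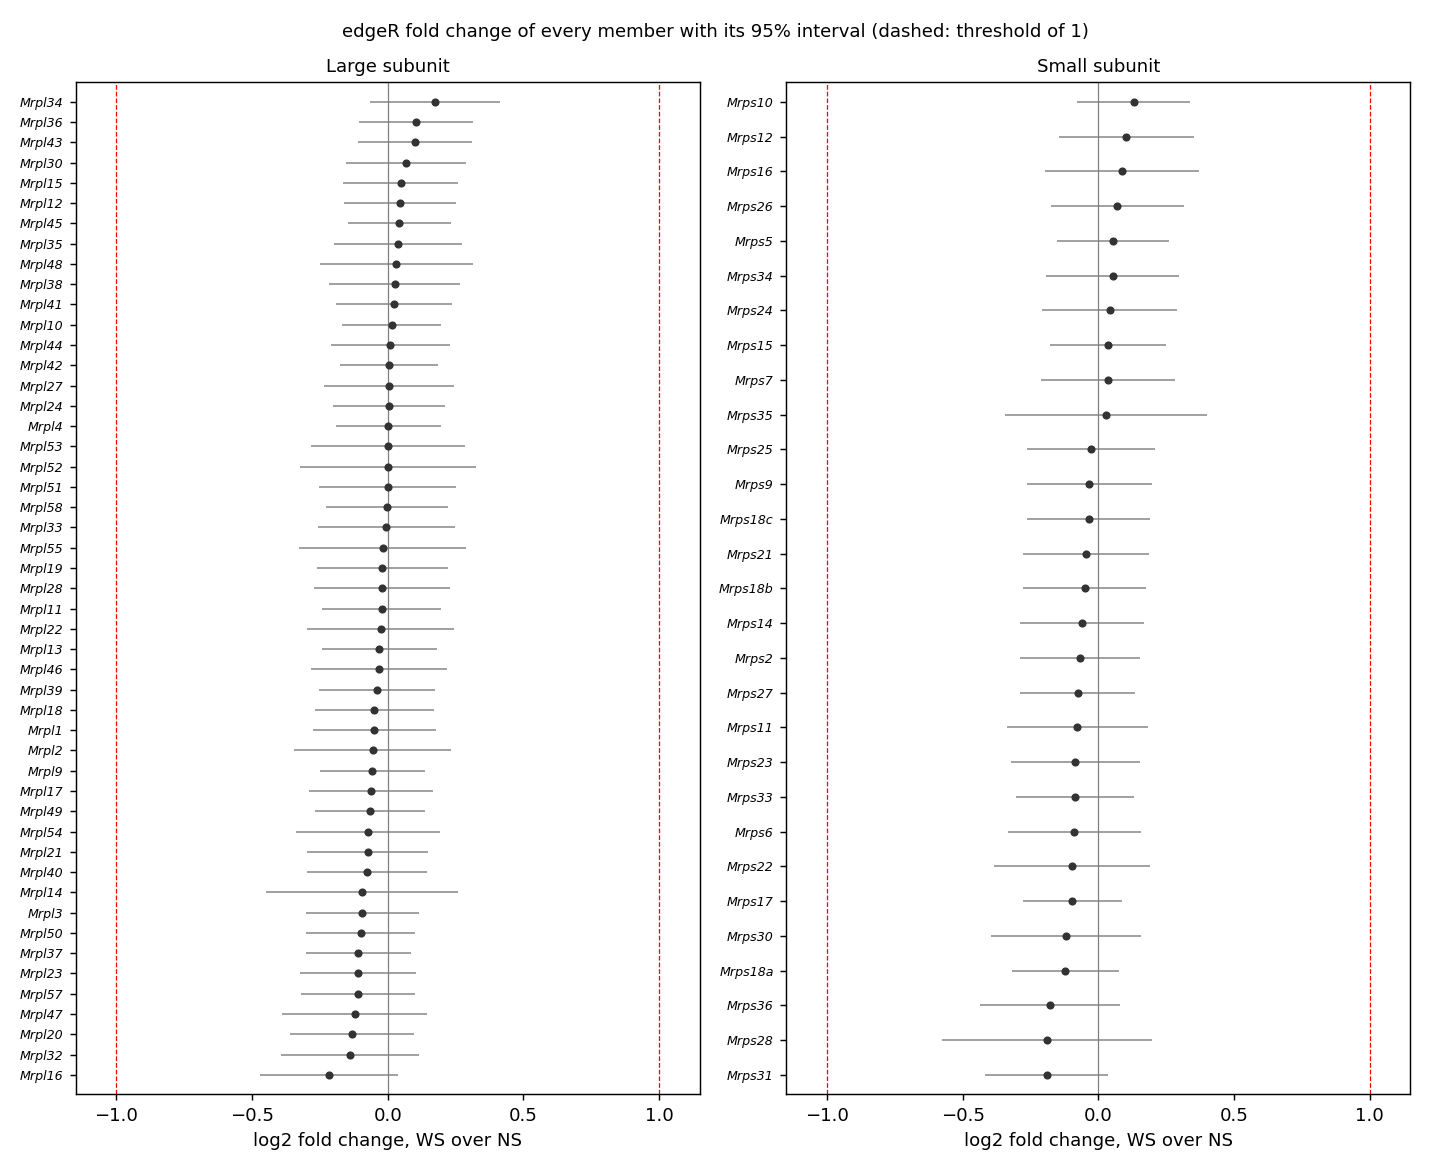
Fitted log2 fold change (WS over NS, x axis) of each of the 49 large subunit genes (left) and the 29 small subunit genes (right), as points with 95% intervals from edgeR, ordered by value; dashed lines mark a log2 fold change of 1 in either direction. The points lie between -0.22 and 0.18, and all 78 intervals include 0 and stay inside the dashed lines.

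Among the large subunit genes, those with the smallest p were Mrpl16, Mrpl34, Mrpl20, Mrpl37 and Mrpl32. Mrpl16 (chr19:11770391-11774960, plus strand), whose bacterial counterpart is placed late in ribosome assembly, was at 22.8, 19.1 and 22.4 CPM in NS 1 to 3 and at 19.8, 19.5 and 15.98 CPM in WS 1 to 3. The groups overlapped, since NS 2 lay below WS 1 and WS 2. Its log2 fold change was -0.22 ± 0.12 (SE), with an unadjusted edgeR p of 0.0898.

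Mrpl34 (chr8:71464959-71465747, plus strand) encodes a small protein with a counterpart in bacteria. It had the highest fold change of the 78 genes, with 25.4, 21.8 and 26.8 CPM in NS and 30.1, 28.3 and 25.1 CPM in WS. Its groups also overlapped, with WS 3 below NS 1 and NS 3. The log2 fold change was 0.18 ± 0.11 (SE) and the unadjusted edgeR p 0.137.

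Mrpl37 (chr4:107055874-107066868, minus strand) is a protein of the mitochondrial ribosome without a bacterial counterpart. It was at 39.4, 40.1 and 42.2 CPM in NS and 38.9, 38.5 and 35.6 CPM in WS, with a log2 fold change of -0.11 ± 0.088 (SE). Every WS value lay below every NS value, by less than 1 CPM at the nearest. Mrpl32, a protein known to be cut by a mitochondrial protease before it joins the subunit, and Mrpl20, counterpart of a bacterial protein that binds early in assembly, had log2 fold changes of -0.14 ± 0.12 and -0.13 ± 0.10 (SE), and in both the groups overlapped.

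Of the small subunit genes, Mrps31, Mrps36, Mrps10, Mrps18a and Mrps17 had the smallest p. Mrps31 (chr8:22411361-22429665, plus strand), a protein found in the mitochondrial and not the bacterial ribosome, was at 17.1, 15.3 and 17.2 CPM in NS and 13.9, 14.5 and 15.0 CPM in WS. All WS values lay below all NS values. The log2 fold change was -0.19 ± 0.10 (SE), with an unadjusted edgeR p of 0.0897, the smallest of the 78.

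Mrps10 (chr17:47368887-47381417, plus strand), counterpart of a bacterial protein of the small subunit head, went the other way, with 18.8, 17.5 and 18.7 CPM in NS and 20.4, 19.1 and 20.7 CPM in WS. All WS values were above all NS values, and the log2 fold change was 0.13 ± 0.095 (SE). Mrps17 (chr5:129715497-129722556, plus strand), which binds ribosomal RNA in the subunit body, was at 41.3, 41.7 and 42.5 CPM in NS and 39.0, 39.5 and 38.9 CPM in WS. These values differed little within a group, and the groups did not overlap, with a log2 fold change of -0.097 ± 0.083 (SE).

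Members whose groups did not overlap numbered 6 in all, beside 6.27% of all genes tested. Mrps10 was higher in WS, against 3.11% of all genes tested, and 5 were lower, against 3.16%. The 5 were Mrpl37, Mrps17, Mrps18a, Mrps31 and Mrpl9, the last named after its values were seen. With 3 libraries against 3, an exact permutation test of a single gene cannot give a two-sided p below 0.1.

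Symbols do not always give the subunit. Mrps18a and Mrps30 are named for the small subunit, but their proteins sit in the large subunit of the solved structures. Mrps36 encodes a subunit of the oxoglutarate dehydrogenase complex of the citric acid cycle. Mrps36 (chr13:100735955-100744659, minus strand) was at 33.0, 26.3 and 34.2 CPM in NS and 30.4, 26.7 and 25.6 CPM in WS, a log2 fold change of -0.18 ± 0.12 (SE). NS 2 lay within the range of WS. It is also 1 of 3 members with annotated pseudogenes that carry the member's name, 3 in its case, to which reads could be assigned. Pseudogenes under other names were not counted. Grouped by structure, the median log2 fold change was -0.023 over 51 large subunit genes and -0.041 over 26 small subunit genes, so that the gap between the subunits was 0.018 in place of 0.031. By symbol, the gap was -0.019 without WS 1 and 0.060 without WS 2.

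The Mrps18 paralogs encode related proteins, 1 of which sits in the large and 2 in the small subunit. Mrps18a (chr17:46110986-46128910, plus strand) was at 46.2, 44.6 and 47.3 CPM in NS and 44.3, 43.8 and 38.8 CPM in WS. All WS values lay below the NS values, but the gap between WS 1 and NS 2 was under 1 CPM, and the log2 fold change was -0.12 ± 0.090 (SE). Mrps18b was at 27.05, 26.96 and 23.8 CPM in NS and 26.9, 25.6 and 22.5 CPM in WS. Mrps18c, the paralog closest to the bacterial protein, was at 14.4, 14.2 and 14.9 CPM in NS and 13.3, 15.1 and 14.1 CPM in WS. Their log2 fold changes were -0.051 ± 0.10 and -0.036 ± 0.10 (SE). Mrps30 had a log2 fold change of -0.12 ± 0.13 (SE), and its groups overlapped.

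Genes for proteins with and without a bacterial counterpart had medians close to each other. The median log2 fold change was -0.028 over 46 members with a counterpart and -0.032 over 31 members without. Mrps18a and Mrps18b, though paralogs of Mrps18c, were counted among those without. With subunits grouped by structure, it was, within the small subunit, -0.035 over 16 and -0.064 over 10 genes, and within the large subunit -0.024 over 30 and -0.0033 over 21 genes. In none of these groups did a gene pass an unadjusted p of 0.05.

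As a set, the genes differed more among the libraries of a group than between the groups. Summed over all 78 genes, the level was 2272, 2059 and 2342 CPM in NS 1 to 3 and 2291, 2177 and 2091 CPM in WS 1 to 3. The lowest and the highest library were both NS. The mean was 2224 ± 147 CPM in NS and 2186 ± 100 CPM in WS (SD, n = 3), lower in WS by 1.71%, which is smaller than the SD within either group. As a log2 ratio of WS to NS this was -0.025, and it was -0.0095, -0.078 and 0.014 without NS 1, 2 and 3 in turn and -0.060, -0.030 and 0.0060 without WS 1, 2 and 3.

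Both subunits were highest in NS 3 and lowest in NS 2. The large subunit summed to 1414 ± 91.2 CPM in NS and 1395 ± 61.3 CPM in WS, and the small subunit to 810 ± 55.9 and 791 ± 40.0 CPM (SD, n = 3), lower in WS by 1.35% and 2.34%. Their ratio was 1.74, 1.76 and 1.74 in NS and 1.76, 1.74 and 1.79 in WS. Group means of the ratio were 1.745 ± 0.00844 in NS and 1.763 ± 0.0274 in WS (SD, n = 3), and the groups overlapped. Over the 6 libraries the coefficient of variation was 5.19% for the summed level and 1.17% for the ratio, so the subunits moved from library to library nearly in proportion.

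**Figure D2:**
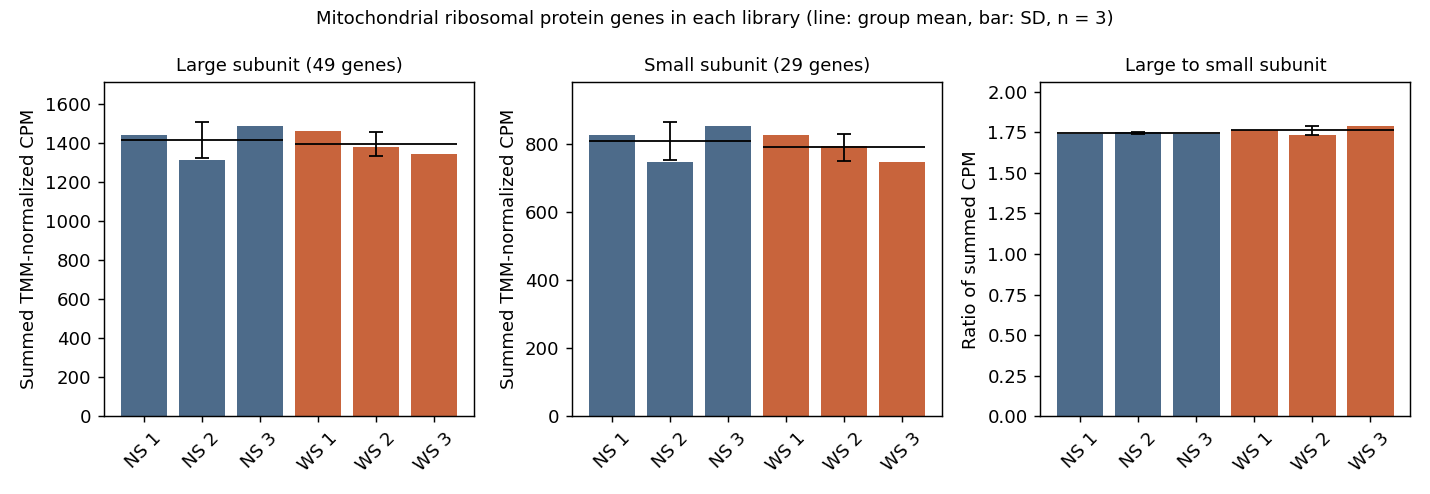
Summed TMM-normalized CPM (y axis) of the large subunit genes (left) and the small subunit genes (middle) and the ratio of the 2 sums (right) in each library (x axis, NS blue, WS orange); lines give group means and error bars the SD (n = 3). NS 2 and WS 3 are lowest in both subunits, and the ratio stays between 1.74 and 1.79.

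The same order appeared gene by gene. In NS 2, 70 of the 78 genes were below their own mean over the 6 libraries, with a median of -0.088 on the log2 scale. In NS 3, 69 were above it, with a median of 0.099. WS 1 had 48 genes above and a median of 0.060, WS 2 had 28 and -0.011, and WS 3 had 20 and -0.073. NS 1 had 56 and 0.048. Over all genes tested, between 49% and 52% were above their own mean in each library. NS 2 and NS 3 thus lay at the 2 ends of the range, with the WS libraries between them.

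**Figure D3:**
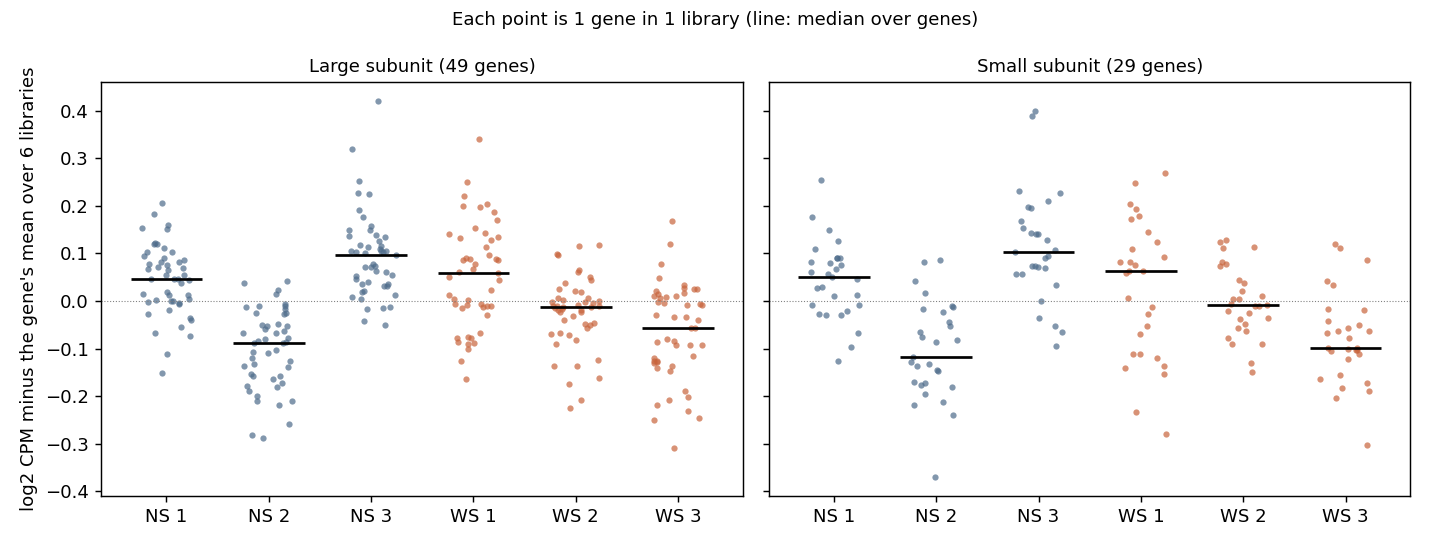
Deviation of each gene's log2 CPM from its own mean over the 6 libraries (y axis) in each library (x axis) for the 49 large and 29 small subunit genes, with 1 point per gene and a line at the median. In both subunits most points are below 0 in NS 2 and above 0 in NS 3, and the WS medians fall between those of NS 2 and NS 3.

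Transcript length was compared with the differences between libraries. The members' transcripts had a median length of 1302 bases, against 3096 over all genes tested, and a median GC content of 50.4% against 50.7%. In the 652 other genes with transcripts under 1000 bases, the medians were 0.0050, -0.11 and 0.10 in NS 1 to 3 and 0.081, 0.011 and -0.072 in WS 1 to 3. NS 3 was highest and NS 2 lowest there, as in the members. In the 2696 other genes with transcripts of 1000 to 2000 bases, the medians were 0.0010, -0.052 and 0.049 in NS and 0.063, 0.021 and -0.072 in WS, with WS 1 highest and WS 3 lowest. The 53 members of 1000 bases or more were at 0.050, -0.075 and 0.089 in NS and 0.014, -0.010 and -0.063 in WS, with NS 3 highest and NS 2 lowest. In the 4590 other genes with transcripts of 4000 bases or more they were -0.010, 0.047 and -0.034 in NS and -0.061, -0.019 and 0.082 in WS, of the opposite sign to the class under 1000 bases in each of the 6 libraries. Cytosolic ribosomal protein genes, which also have short transcripts, were at 0.023, -0.19 and 0.091 in NS and 0.11, -0.029 and -0.022 in WS (80 genes), with WS 1 highest and NS 2 lowest. The same number of nuclear genes for subunits of oxidative phosphorylation were at 0.017, -0.12 and 0.12 in NS and 0.050, 0.010 and -0.080 in WS.

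Once the trend of each library on transcript length and GC content was taken out, the range of the members' library medians fell from 0.19 to 0.090. The medians were then 0.054, -0.026 and 0.042 in NS and 0.030, -0.036 and -0.030 in WS. The part of transcript length in the difference between libraries was otherwise not tested. Fold changes of the 25 members with transcripts under 1000 bases had a median of -0.0052 on the log2 scale, and those of the 53 longer ones -0.041.

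**Figure D4:**
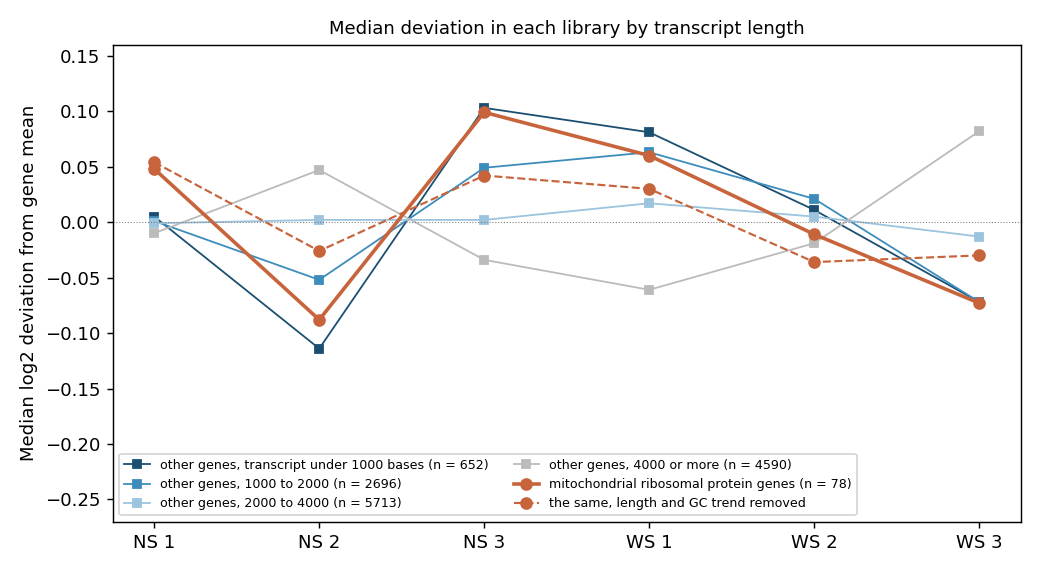
Median log2 deviation from the gene's own mean (y axis) in each library (x axis) for the 78 mitochondrial ribosomal protein genes (orange, dashed after removing the length and GC trend) and for all other genes in 4 classes of transcript length (blue to grey). NS 3 is highest and NS 2 lowest in the members and in the class under 1000 bases, whereas WS 1 is highest and WS 3 lowest in the class of 1000 to 2000 bases.

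Replicate numbers, taken as pairs, gave differing directions. In pair 1, the level in WS exceeded that in NS for 35 of 78 genes, and the median log2 difference was -0.012. In pair 2, 58 were higher, with a median of 0.088, and in pair 3, 7 were higher, with a median of -0.16. The small subunit had medians of -0.029, 0.14 and -0.19 in the 3 pairs and the large subunit -0.0090, 0.065 and -0.15. Of the members, 9 were lower in all 3 pairs and 3 were higher in all 3, beside 8.57% and 9.82% of all genes tested. Mrps10 and Mrps5, counterpart of a bacterial protein at the mRNA entry, were among the 3. With the replicate number as a block, 0 members passed at either threshold (1.77% of all genes had an unadjusted p under 0.05), and the count over all genes rose from 5 to 11 at an adjusted p under 0.05 (0.08% of genes).

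Leaving out single libraries turned the sign of the large subunit. Without NS 3 the median of the large subunit was 0.023 and 35 of the 78 genes were lower in WS, and without NS 2 it was -0.072 and 67 were lower. Without WS 3 the large subunit median was 0.012. The small subunit median stayed below 0, between -0.099 and -0.0017, whichever library was left out. At an unadjusted p under 0.05, Mrpl16 and Mrps36 passed without NS 2, where 1.52% of all genes did, and Mrpl34 passed without WS 3, where 4.41% did. None of the 78 had an adjusted p under 0.05 in any of these fits.

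Other genes of mitochondrial translation had medians near 0, with a wider range in some lists. The 6 genes for mitoribosome proteins with other names split 3 and 3, with a median log2 fold change of -0.022. Dap3, a GTP-binding protein of the small subunit, was at 63.6, 57.9 and 65.4 CPM in NS and 62.8, 59.5 and 54.3 CPM in WS, highest in NS 3 and lowest in WS 3. Of 22 tested assembly factors, which modify the ribosomal RNAs or fold the subunits, 10 were above 0 and 12 below (median -0.0080, lowest -0.40). Of 15 translation factors, 3 were above and 12 below (median -0.038, lowest -0.25). Tufm, the mitochondrial elongation factor Tu, had a log2 fold change of 0.014 ± 0.087 (SE), and Lrpprc, which stabilizes mitochondrial mRNAs, one of -0.042 ± 0.085 (SE).

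The 17 mitochondrial tRNA synthetases split 8 and 9 (median -0.0054). Of 12 regulators of mitochondrial gene expression and biogenesis, 8 were above 0 and 4 below (median 0.030). Tfam, which packs and transcribes the mitochondrial genome, had a log2 fold change of -0.043 ± 0.093 (SE), and Ppargc1a, a coactivator of mitochondrial biogenesis, one of -0.060 ± 0.12 (SE). In these lists 0 genes had an unadjusted edgeR p under 0.05, against 1.19% of all genes tested. The genes that the mitochondrial genome encodes were not analysed here. Cytosolic ribosomal protein genes had a median of 0.034, with 61 of 80 above 0, and the genes for subunits of oxidative phosphorylation -0.017, with 35 of 80 above 0.

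Markers of other cell types were measured beside these values. In WS, 10 of 10 oligodendrocyte markers had a fold change above 0 (median 0.20, summed CPM 8427 to 12120 in NS and 10020 to 13410 in WS), and so had 10 of 10 endothelial markers (median 0.11, 230 to 246 in NS and 254 to 300 in WS), 10 of 10 astrocyte markers (median 0.13, 4587 to 5100 in NS and 4810 to 5935 in WS) and 9 of 10 microglial markers (median 0.11, 483 to 503 in NS and 509 to 531 in WS). Of the cortical neuron markers 4 of 9 were above 0 (median -0.0094), of the striatal markers 8 of 8 (median 0.25), of the choroid plexus markers 3 of 9 (median -0.093) and of 5 markers of blood all 5 (median 0.025). Pecam1, an adhesion molecule of endothelial cells, alone among these markers passed an unadjusted p of 0.05, with a log2 fold change of 0.87. Its adjusted p by edgeR was 0.813. In bulk tissue, fewer cells of a type and less RNA per cell cannot be told apart, and the part of cell composition in the members' values was not tested.

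Levels differed widely between the genes. Per kilobase of transcript, the median was 20.04 CPM for the large and 18.6 CPM for the small subunit. Mrps21, a short protein with a bacterial counterpart, was highest at 72.2 CPM per kilobase, between 63.8 and 78.5 in the 6 libraries. It was followed by Mrpl20 at 66.8 (60.5 to 79.2) and by Mrpl42 at 65.4 (64.3 to 67.0), and these 3 ranges overlapped. Mrps12, part of the decoding centre, came next at 53.0 (46.9 to 63.6), then Mrpl41 at 51.5 and Mrps18a at 49.98, again with overlapping ranges.

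The 3 lowest large subunit genes were Mrpl47, near the exit of the peptide tunnel, at 3.03 CPM per kilobase (2.65 to 3.37), Mrpl1, part of the stalk near which tRNAs leave, at 3.85, and Mrpl17 at 4.42. The 3 lowest of the small subunit were Mrps35 at 3.20 (2.44 to 4.16), Mrps16 at 5.23 and Mrps5 at 6.73. None of these 6 passed the test between WS and NS. The order rests on the transcript chosen for each gene. With coding length in place of transcript length, all 3 highest large subunit genes remained the 3 highest, but only 1 of the 3 in the small subunit did. Of the 3 lowest, 2 remained in the large subunit and 0 in the small subunit, where Mrps22, Mrps28 and Mrps31 were then lowest. Mrps25, which like Mrps22 and Mrps28 was named after its values were seen, was highest of the small subunit genes at 155 CPM per coding kilobase. Mrps35 also varied most among the named genes, with 12.04, 10.2 and 17.3 CPM in NS and 13.0, 13.1 and 14.3 CPM in WS, so that its highest and lowest libraries were both NS.

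Spread between libraries was a little smaller than in other genes. The SD of log2 CPM over the 6 libraries had a median of 0.11 in the members, 0.14 over all genes tested and 0.12 over genes with a mean count of at least 100. No member had a library more than 1.5-fold from the median of the other 5.

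Promoters of the set were read as a description of its genes. Their part in the differences between libraries, which other genes with short transcripts shared in part, was not tested. RefSeq sequences (GRCm38.p6) from 250 bases before to 50 bases after the start were found for 69 of the 78 genes. On either strand, 25 of them (36.2%) held CCGGAAG, the core bound by ETS factors such as GABP, against 16.7% of the promoters of all genes tested. The letters AAGATGGC, bound by YY1, were in 12 (17.4%, against 4.38%), and GCGCATGC, the inner part of the palindrome bound by NRF1, was in 8 (11.6%, against 5.25%). At least 1 of the 3 was in 37 promoters (53.6%, against 24.2%). These factors are known as regulators of nuclear genes for mitochondrial proteins. CCGGAAG and AAGATGGC can overlap by the letters AAG. AAGATGGC also holds ATG, and the windows run 50 bases past the start, so matches can fall on a gene's own start codon. Which of the 12 matches do so was not tested.

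GGGCGG, the core bound by SP factors, was in 17 of 43 large subunit promoters (39.5%) and 17 of 26 small subunit promoters (65.4%), against 64.2% of those of all genes tested. TATAAA was in 5.80% of the members' promoters against 6.88%. Median GC content was 58.3% and 61.0%. Between the subunits, the ETS core was in 14 of 43 large and 11 of 26 small subunit promoters, AAGATGGC in 6 and 6, and GCGCATGC in 7 and 1. Against all 27025 genes with a promoter in the table, of which 9.12% held the ETS core, 2.88% AAGATGGC and 2.80% GCGCATGC, the shares in genes tested here were already higher. A match of letters describes the sequence and is no evidence of binding.

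The following 6 promoters show the motifs, in capitals in either orientation, in genes described above, with Mrpl16 as an example without any of the 3. Mrpl32 (chr13:14612988-14613287, minus strand) has GCGCATGC more than once and AAGATGGC. Mrps18a (chr17:46110754-46111053, plus strand) and Mrps12 (chr7:28741772-28742071, minus strand) have the ETS core and AAGATGGC. Mrpl34 (chr8:71464676-71464975, plus strand), the gene with the highest fold change, has the ETS core. Mrpl16 (chr19:11770165-11770464, plus strand) had the lowest. Mrps11 (chr7:78782881-78783180, plus strand), a small subunit gene chosen after its values were seen, is shown for its neighbour.
Mrpl32: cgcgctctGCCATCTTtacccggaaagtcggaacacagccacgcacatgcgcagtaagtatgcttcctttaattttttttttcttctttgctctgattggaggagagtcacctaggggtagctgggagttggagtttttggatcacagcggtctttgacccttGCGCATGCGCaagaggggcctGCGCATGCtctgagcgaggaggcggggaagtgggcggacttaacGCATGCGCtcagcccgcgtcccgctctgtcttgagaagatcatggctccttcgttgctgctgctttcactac
Mrps18a: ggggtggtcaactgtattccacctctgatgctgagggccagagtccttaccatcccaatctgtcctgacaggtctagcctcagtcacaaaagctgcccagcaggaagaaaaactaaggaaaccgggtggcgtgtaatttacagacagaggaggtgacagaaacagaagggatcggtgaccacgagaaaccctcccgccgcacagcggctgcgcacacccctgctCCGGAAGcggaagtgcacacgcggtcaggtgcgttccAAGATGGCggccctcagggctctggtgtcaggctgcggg
Mrps12: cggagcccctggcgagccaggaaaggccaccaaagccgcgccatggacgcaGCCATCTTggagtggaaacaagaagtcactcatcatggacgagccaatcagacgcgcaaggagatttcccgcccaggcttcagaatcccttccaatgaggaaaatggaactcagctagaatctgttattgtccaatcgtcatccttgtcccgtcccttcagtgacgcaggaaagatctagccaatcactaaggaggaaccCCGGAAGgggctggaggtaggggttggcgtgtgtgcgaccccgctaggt
Mrpl34: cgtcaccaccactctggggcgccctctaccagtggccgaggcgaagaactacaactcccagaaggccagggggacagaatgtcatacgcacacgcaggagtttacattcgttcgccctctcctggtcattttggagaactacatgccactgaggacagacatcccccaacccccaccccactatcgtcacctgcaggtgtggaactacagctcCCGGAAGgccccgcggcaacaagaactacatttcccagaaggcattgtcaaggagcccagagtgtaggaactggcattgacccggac
Mrpl16: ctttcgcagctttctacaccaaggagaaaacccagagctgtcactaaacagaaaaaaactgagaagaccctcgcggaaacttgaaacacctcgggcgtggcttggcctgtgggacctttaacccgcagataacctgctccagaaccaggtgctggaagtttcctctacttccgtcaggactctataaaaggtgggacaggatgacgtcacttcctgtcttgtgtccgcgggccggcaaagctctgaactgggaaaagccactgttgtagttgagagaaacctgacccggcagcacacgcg
Mrps11: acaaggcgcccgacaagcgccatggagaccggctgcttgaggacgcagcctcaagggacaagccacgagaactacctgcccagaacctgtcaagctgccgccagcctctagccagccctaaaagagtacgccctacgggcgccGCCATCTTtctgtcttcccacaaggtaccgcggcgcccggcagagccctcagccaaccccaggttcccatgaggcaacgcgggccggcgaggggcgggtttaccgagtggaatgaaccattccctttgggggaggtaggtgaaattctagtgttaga

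Some of the genes start next to another gene on the opposite strand. By RefSeq starts, 25 of the 69 (36.2%) had such a neighbour within 1000 bases, against 1771 of 10843 tested genes with a promoter (16.3%). Mrps11 and the large subunit gene Mrpl46 start 42 bases apart, so that the promoter windows of a gene of each subunit overlap, and the AAGATGGC match of Mrps11 lies upstream of its start. Mrps11 was at 14.7, 13.0 and 16.3 CPM in NS and 13.1, 15.0 and 13.6 CPM in WS. Mrpl46 was at 18.8, 18.4 and 19.4 CPM in NS and 21.2, 18.2 and 15.98 CPM in WS. The libraries did not rank alike in the 2 genes, and their log2 fold changes were -0.078 ± 0.12 and -0.032 ± 0.11 (SE).

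Mrps12 starts 147 bases from Sars2, the mitochondrial seryl-tRNA synthetase, on the opposite strand. Mrps12 was at 37.3, 33.9 and 39.6 CPM in NS and 45.9, 37.4 and 35.6 CPM in WS, and Sars2 at 11.03, 12.1 and 11.2 CPM in NS and 13.7, 11.8 and 11.6 CPM in WS. WS 1 was the highest library for both genes, and their log2 fold changes were 0.10 ± 0.11 and 0.11 ± 0.12 (SE). Without WS 1 that of Mrps12 was -0.018. Mrpl47 starts 308 bases from Ndufb5, a subunit of respiratory complex I, with log2 fold changes of -0.12 ± 0.12 and -0.049 ± 0.080 (SE). Sars2 and Ndufb5 were named as neighbours, after their values were seen. In the annotation, 36 members overlap a gene on the other strand and 13 a gene on the same strand, and whether counting used strand is not given in the sources used here, so their counts may hold reads of the neighbour.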

How the data were processed

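Bulk RNA-seq was performed by the authors on S1 cortex of 3 NS and 3 WS samples (DNBseq platform, BGI). RNA was accepted at an RNA integrity number above 2, reads from rRNA and of low quality were removed, and the rest were aligned with HISAT2. The submitters' processing notes name mm10, and the counting tool is not given in the sources used here. The authors deposited for each gene the mean of the estimated counts over the 6 libraries, not scaled for depth, and their SD. They also deposited z-scores, which give how many SDs each library lies from the mean. Columns of the authors' own comparison, holding a log2 fold change, a p-value, its -log10 and an FDR score, were deposited as well and not used, nor was a second table with a further comparison. The name of the column for WS replicate 3 carries an extra letter, and the authors' WS mean includes it.

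Estimated counts were recalculated from mean, SD and z-score and rounded. The design had been written for counts, and the count test was used on the recalculated values. Of the members' values, 86.3% were whole within the rounding of the deposited decimals (at most 0.0762 counts). WS was compared with NS by the quasi-likelihood test of edgeR 4.0.16, after TMM normalization and filterByExpr, with p-values of 13747 genes adjusted by Benjamini-Hochberg, and as an alternative by DESeq2 1.42.0, in R 4.3.3. Both were also run on simulated counts, in which the changes were larger than any of the members'. That run therefore does not show how they treat changes as small as these. Total counts of 15660395 to 17276168 per library were taken as the depth. No 2 libraries agreed within sampling noise, the lowest chi-square per degree of freedom being 4.29, so each was counted as 1 replicate. Transcript lengths and positions came from GENCODE M21, promoters from RefSeq, and trends on length and GC content were fitted with mgcv 1.9.3.

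Replicate numbers come from the sample titles. Deviations of same-numbered NS and WS libraries from their group means correlated at 0.343, 0.232 and 0.124 in pairs 1 to 3 (Pearson's r, over 13688 genes, which are not independent replicates), and the numbers were therefore treated as pairs in an alternative fit that blocks on the number. Other alternatives were other normalizations, other filters, DESeq2, each library left out, subunits by structure, and, chosen after seeing the data, the removal of length and GC trends. Named members are the 5 with the smallest p and the 3 with the highest and lowest CPM per kilobase in each subunit, the Mrps18 paralogs, Mrps30 and Mrps36. The members, lists and rules were chosen with earlier results of these data known. One cortical neuron marker of the planned list is not reported here, and the sums over that list leave it out.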

Additional observations from a re-analysis of the deposited data

How the results depend on the processing

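Under the 3 other normalizations, both other filters, DESeq2, the replicate block and the removed trend, both subunit medians stayed below 0 and 0 members had an adjusted p under 0.05. With the trend on length and GC content removed, chosen after seeing the data, 1 member (Mrps18a) had an unadjusted p under 0.05 where there was none, beside 2.39% of all genes in that fit. The replicate block gave medians of -0.024 and -0.053 for the large and small subunit and raised the count of genes with an adjusted p under 0.05 from 5 to 11, and it changed no call of a member. Leaving out 1 library at a time gave 0 to 6 genes past the study's threshold in place of 4, with 0 without NS 2 and without NS 3, and 0 to 2 members at an unadjusted p under 0.05, beside 0.808% to 4.41% of all genes. The large minus the small subunit median, 0.031, ranged from -0.019 (without WS 1) to 0.060 (without WS 2). The sign turned, over the same 6 fits, for 9 of the 23 named members, in log2 fold change for Mrpl17 from -0.16 to 0.018, Mrpl41 from -0.056 to 0.083, Mrpl42 from -0.011 to 0.015, Mrps12 from -0.018 to 0.17, Mrps16 from -0.026 to 0.16, Mrps18b from -0.11 to 0.018, Mrps18c from -0.092 to 0.010, Mrps21 from -0.14 to 0.0071 and Mrps35 from -0.13 to 0.28. The cause was not tested. Summed CPM needs no test or filter on single genes, so it was recomputed only under other normalizations, the removed trend and left-out libraries. Each member had over 100 counts on average, and the 3 libraries in each group limit the precision.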
